A study of Homo sapiens with 6 samples.

Results

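Integrins are the surface receptors by which cells hold extracellular matrix, each a pair of an α and a β subunit, and laminins are the matrix proteins they meet in a basement membrane, each a trimer of an α, a β and a γ chain. The members described here were chosen by name alone: every probe of the Illumina Human-6 array whose annotated gene symbol is that of an integrin subunit (ITGA or ITGB) or of a laminin chain (LAMA, LAMB or LAMC). This gave 35 of the 18665 genes with a probe on the array, 25 integrin genes and 10 laminin genes, read by 41 and 17 probes, or 58 of the array's 48803 probes. Probes with the same symbol share a target gene and are not separate evidence of its level.

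The study set neural stem cells (NSC) against the embryonic stem cells (ESC) they were made from, in the established human lines H1, HSF1 and HSF6. Each of the 6 arrays measured the RNA of 1 culture, so there were 3 NSC and 3 ESC arrays, 1 per line and stage, and the spread within a stage is the spread between lines. H1 was cultured at Rutgers without feeder cells, whereas HSF1 and HSF6 were both grown and differentiated at UCLA, so line and site cannot be told apart. The methods also state that H1 carried duplications on chromosomes 12 and 17, and they describe neural induction on plates coated with Matrigel, a matrix extract rich in laminin. For HSF1 and HSF6 the methods refer to an earlier description, so the matrix used for those lines is not known here.

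In a basement membrane the laminin trimers form a sheet that is tied to collagen IV by nidogens, and the α chain decides which receptors bind. Integrin β1 pairs with many α subunits to bind laminin, collagen or fibronectin, while αV pairs with several β subunits to bind ligands that hold the RGD motif. Pluripotent cells in culture are known to attach to laminin through α6β1, and the neural progenitors of the ventricular zone keep contact with a laminin-rich basement membrane at the surface of the brain.

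The promoter windows of 3 genes that the results turn on are shown because 2 of these genes were higher in NSC (LAMA4 and LAMC1) and 1 was lower (ITGA6). They come from RefSeq on GRCh38.p14, are 300 bases long around the annotated start and are written 5′ to 3′ on the strand of the gene. LAMA4 lies at chr6:112254518-112254817 on the minus strand, LAMC1 at chr1:183023170-183023469 on the plus strand, and the first of the 2 ITGA6 windows at chr2:172427086-172427385 on the plus strand. Capitals mark any match, on either strand, to 1 of 5 short motifs: the GC box, the CCAAT box, the E-box bound by ZEB and SNAI factors, the AP-1 site and the TATA box. Their letters are given below with their frequencies, and no match overlaps another in these windows.
LAMA4: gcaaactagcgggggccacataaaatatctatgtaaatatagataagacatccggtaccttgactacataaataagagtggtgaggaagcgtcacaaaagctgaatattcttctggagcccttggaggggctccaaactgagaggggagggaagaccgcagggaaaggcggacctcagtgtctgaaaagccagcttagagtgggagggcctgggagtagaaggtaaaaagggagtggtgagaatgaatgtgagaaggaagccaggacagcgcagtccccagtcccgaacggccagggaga
LAMC1: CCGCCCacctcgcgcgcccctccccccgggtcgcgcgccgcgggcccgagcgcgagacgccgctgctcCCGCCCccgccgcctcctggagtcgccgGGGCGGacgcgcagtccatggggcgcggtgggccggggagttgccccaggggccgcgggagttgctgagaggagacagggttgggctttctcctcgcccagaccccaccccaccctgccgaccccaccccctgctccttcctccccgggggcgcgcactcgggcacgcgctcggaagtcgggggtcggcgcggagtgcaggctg
ITGA6: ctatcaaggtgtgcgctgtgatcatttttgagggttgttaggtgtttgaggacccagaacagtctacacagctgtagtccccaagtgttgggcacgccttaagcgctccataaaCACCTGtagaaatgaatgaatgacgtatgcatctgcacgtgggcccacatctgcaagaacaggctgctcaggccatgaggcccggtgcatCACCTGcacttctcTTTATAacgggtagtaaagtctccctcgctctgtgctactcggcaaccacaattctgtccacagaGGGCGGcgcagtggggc

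The LAMA4 window held none of the 5 motifs, the LAMC1 window held 3 GC boxes, and the ITGA6 window held 2 E-boxes, 1 GC box and 1 TATA box. Promoter windows were matched for 24 of the 35 member genes, 31 windows in all. A GC box, with the letters GGGCGG on either strand, was found in 18 of the 31 (58.1%), against 45% of all 35116 windows, and a CCAAT box in 6 (19.4%), against 34.6%. The E-box, searched as CACCTG, was found in 6 member windows (19.4%, against 20.6% of all). The AP-1 site, searched as TGANTCA, was found in 2 (6.45%, against 7.71%). A TATA box, searched as TATAAA, was found in 2 (6.45%, against 11.5%). These are matches of letters only, and no measurement here ties a start site or a factor to the signals.

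Signals are the deposited fluorescence intensities, which lie on a linear scale and share 1 distribution over the 6 arrays, with a median of 137. Background formed a peak at 127 (SD 11.2), and a probe was tested if its signal exceeded 145.3 on all 3 arrays of at least 1 stage. Differences were computed as NSC minus ESC on the log2 scale after subtraction of the background, and a probe was called at a limma adjusted p under 0.05 and a difference of at least 1.5-fold. Of the 58 member probes 29 were tested, for 13 integrin and 8 laminin genes. NSC against ESC, 8 were called higher (10.3% of all 17402 tested probes were) and 3 lower (11.8% of all), and 18 were not called. Counted as genes by their brightest tested probe, 6 were higher (11.4% of all 11012 genes) and 1 lower (12.4% of all). All NSC arrays lay above all ESC arrays for 11 member probes (19.4% of all tested probes) and below them for 5 (25.1% of all).

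Of the 8 probes called higher, 5 passed the limit only in NSC: both LAMA4 probes, 1 LAMA2 probe and those of ITGA1 and ITGA10. They could be tested only because they were high there, and these counts do not stand for all 58 members. Among the 19 probes above the limit in both stages, 3 were higher and 3 lower. The share over all array probes above the limit in both stages is not given, so these counts are not compared with the array. The median difference was 1.0 over the 12 tested laminin probes and 0.09 over the 17 tested integrin probes, beside -0.09 over all tested probes. These medians have the same limit, and genes with several probes count more than once in them. They also include LAMB2 and ITGA4, which passed only in NSC, and both ITGB2 probes and 1 LAMA1 probe, which passed only in ESC. Fewer cells of a type and less RNA per cell cannot be told apart in these whole cultures.

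**Figure D1:**
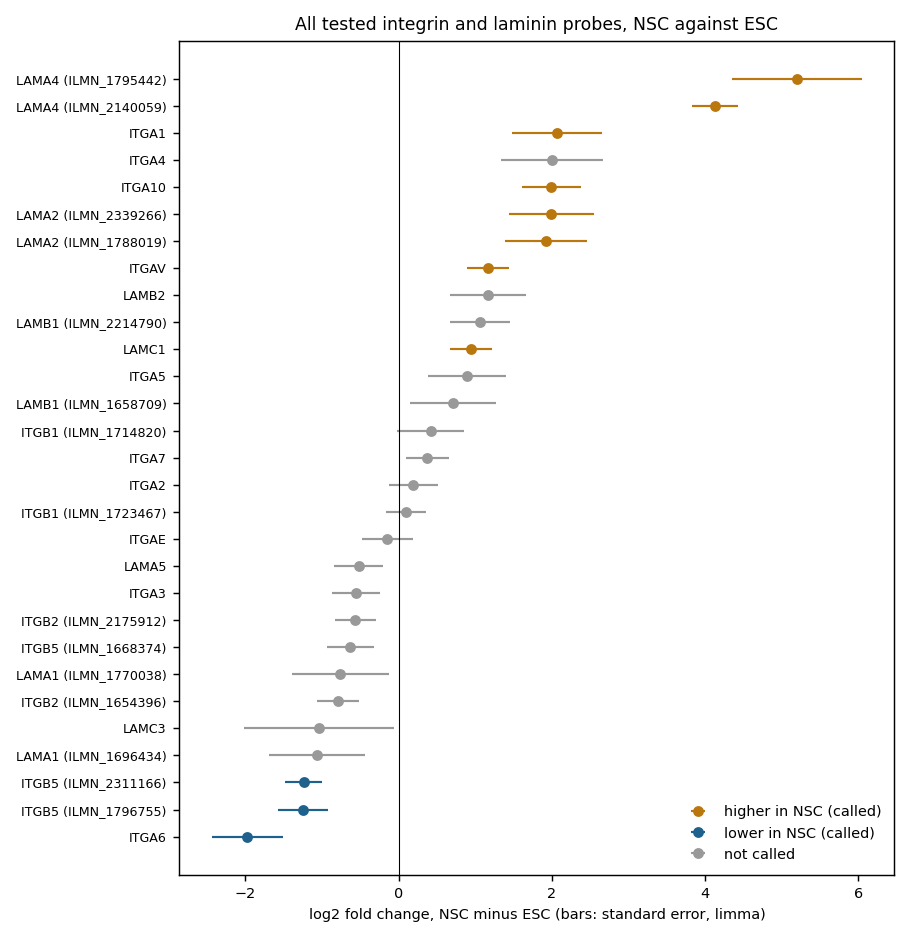
Difference of NSC minus ESC for every tested integrin and laminin probe, on a log2 scale after background correction (horizontal axis; points are the limma estimate, bars its standard error, 3 arrays a stage). The LAMA4 probes lie farthest to the right at 5.20 and 4.13, and the ITGA6 probe farthest to the left at -1.97.

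Stage labels were checked against marker lists, given as the summed background-corrected signal of all listed markers with a probe. NSC arrays summed to 1021 to 7307 for 9 pluripotency markers, against 40313 to 54070 on ESC arrays, and 7 of the 8 tested were lower in NSC. For neural progenitors 5 of the 7 tested markers were higher in NSC, and NES and MSI1 were not called. Sums were 36555 to 49423 in NSC and 5920 to 16788 in ESC. VIM made up most of each sum, with signals of 31083 (H1), 32661 (HSF1) and 37071 (HSF6) in NSC, against 4372 to 14387 in ESC. In NSC of H1, HSF1 and HSF6, FABP7 read 243, 1387 and 1186, SLC1A3 577, 3055 and 3299, and SOX9 2907, 2330 and 1608. SOX1, a defining marker of early neuroectoderm, stayed below the limit on every array. Neuronal markers summed to 3696 in H1 NSC, against 22152 in HSF1 NSC and 25933 in HSF6 NSC, and to 3025 to 3707 in ESC. Of the markers of fibroblasts and mesenchyme 9 of 12 were higher in NSC, with sums of 170944 (H1), 41151 (HSF1) and 61998 (HSF6) in NSC, against 3763 to 7705 in ESC. All 10 epithelial markers were lower in NSC (460 to 719 in NSC, 14760 to 26226 in ESC). Of 3 tested neural crest markers 2 were higher in NSC, SNAI2 by 4.55 and TFAP2A by 2.91. The other, ERBB3, was lower (-3.06, limma adjusted p = 0.0014), below the limit on every NSC array and at 284 to 397 in ESC. The list summed to 1743 to 5714 in NSC, against 356 to 604 in ESC. Of 4 tested smooth muscle markers 1 was higher in NSC (ACTA2, 3.63) and 1 lower (CNN1, -2.45). Of 3 tested endothelial markers 0 were higher and 1 was lower (KDR, -1.67), which was below the limit on every NSC array. The part of these other cell types in the results below was not tested.

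Laminin α4, the chain of vessel, muscle and mesenchymal basement membranes, differed most. The brighter LAMA4 probe had signals of 4618 (H1), 635 (HSF1) and 497 (HSF6) in NSC, against 127 (H1), 138 (HSF1) and 126 (HSF6) in ESC. Every ESC signal was below the limit and every NSC signal above it, and H1 NSC stood far above the other NSC arrays. LAMA4 was therefore at least 27.5-fold higher in NSC, a bound that sets the NSC mean against the background limit, with a fitted difference of 5.20 ± 0.85 (SE, limma adjusted p = 0.0083). A second LAMA4 probe read 640, 559 and 388 in NSC of H1, HSF1 and HSF6, against 116, 128 and 119 in their ESC. On it the NSC arrays lay close together and again did not overlap with ESC, and LAMA4 was at least 11.5-fold higher (4.13 ± 0.30, adjusted p = 4.9e-04). The size on the brighter probe rested on H1 NSC: without that array the fitted difference was 4.09 and the bound 12.8-fold, and on the second probe the bound was 10.0-fold. Leaving out both HSF1 arrays ended the call of the brighter probe (adjusted p = 0.0667), and that of the second held under all 16 alternatives.

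Laminin α2, the chain of muscle and peripheral nerve basement membranes, was higher in NSC on both of its probes. LAMA2 had signals of 285 (H1), 417 (HSF1) and 414 (HSF6) in NSC, against 265 (H1), 159 (HSF1) and 151 (HSF6) in ESC. The stages did not overlap, but H1 ESC lay close to H1 NSC and far above the other ESC arrays. The difference was 1.93 ± 0.53 (adjusted p = 0.041), and the second LAMA2 probe gave 1.99 ± 0.55 (adjusted p = 0.041). Both calls were lost when the line was a block in the fit (adjusted p = 0.0660 and 0.0648). The call of the first was also lost without any 1 of the HSF arrays: without HSF1 NSC the adjusted p was 0.107, without HSF6 NSC 0.118, without HSF1 ESC 0.120 and without HSF6 ESC 0.116. Without H1 ESC the difference was 2.53 (adjusted p = 0.0147).

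Laminin α1, the chain of the first embryonic basement membranes, and laminin α5, the chain that pluripotent cells themselves secrete, were not called. LAMA1 had signals of 284 (H1), 1117 (HSF1) and 388 (HSF6) in NSC, against 653 (H1), 986 (HSF1) and 1044 (HSF6) in ESC. HSF1 NSC had the highest signal of the 6 and the other NSC arrays the lowest, so the stages overlapped (-1.07 ± 0.63, adjusted p = 0.25). Without HSF1 NSC the LAMA1 difference was -1.80 and was called (adjusted p = 0.0345). A dimmer LAMA1 probe ran from 136 to 289 in NSC and from 209 to 306 in ESC (-0.76, adjusted p = 0.41). LAMA5 ranged from 1688 to 2589 in NSC and from 2128 to 3816 in ESC (-0.52, adjusted p = 0.27).

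Among the β and γ chains, γ1, which is part of most laminin trimers, was the only one called. LAMC1 had signals of 10426 (H1), 7001 (HSF1) and 7570 (HSF6) in NSC, against 3678 (H1), 4333 (HSF1) and 5069 (HSF6) in ESC. All 3 NSC arrays lay above all ESC arrays, and the line with the highest NSC signal had the lowest ESC signal. The difference was 0.94 ± 0.27 (adjusted p = 0.046). This call lay near the threshold: it was lost without any 1 of the 6 arrays (adjusted p = 0.0728 to 0.112), without both H1 arrays (0.108) and with the line as a block (adjusted p = 0.0708).

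Laminin β1, the usual partner of γ1, was read by a pair of probes. On the brighter one LAMB1 had 3419, 2209 and 1537 in NSC of H1, HSF1 and HSF6, against 832, 1287 and 1391 in their ESC. The stages did not overlap, though HSF6 NSC was only just above the highest ESC array, and the difference of 1.06 ± 0.39 was not called (adjusted p = 0.088). The dimmer LAMB1 probe read 1979, 696 and 548 in NSC of H1, HSF1 and HSF6, against 435, 631 and 760 in their ESC (0.71, adjusted p = 0.39). Without both H1 arrays its difference was -0.20, so its direction rested on H1.

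Laminin β2, the chain of synaptic and kidney basement membranes, had LAMB2 signals of 282, 276 and 318 in NSC of H1, HSF1 and HSF6, against 145, 236 and 230 in their ESC. H1 ESC alone was at the background limit, and the stages did not overlap (1.16 ± 0.50, adjusted p = 0.13, not called). LAMC3, for the γ3 chain found in cortex and retina, read 920 (H1), 403 (HSF1) and 150 (HSF6) in NSC, against 654 (H1), 609 (HSF1) and 410 (HSF6) in ESC. Its NSC arrays held both the highest and the lowest of the 6 signals (-1.04 ± 0.98, adjusted p = 0.47).

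**Figure D2:**
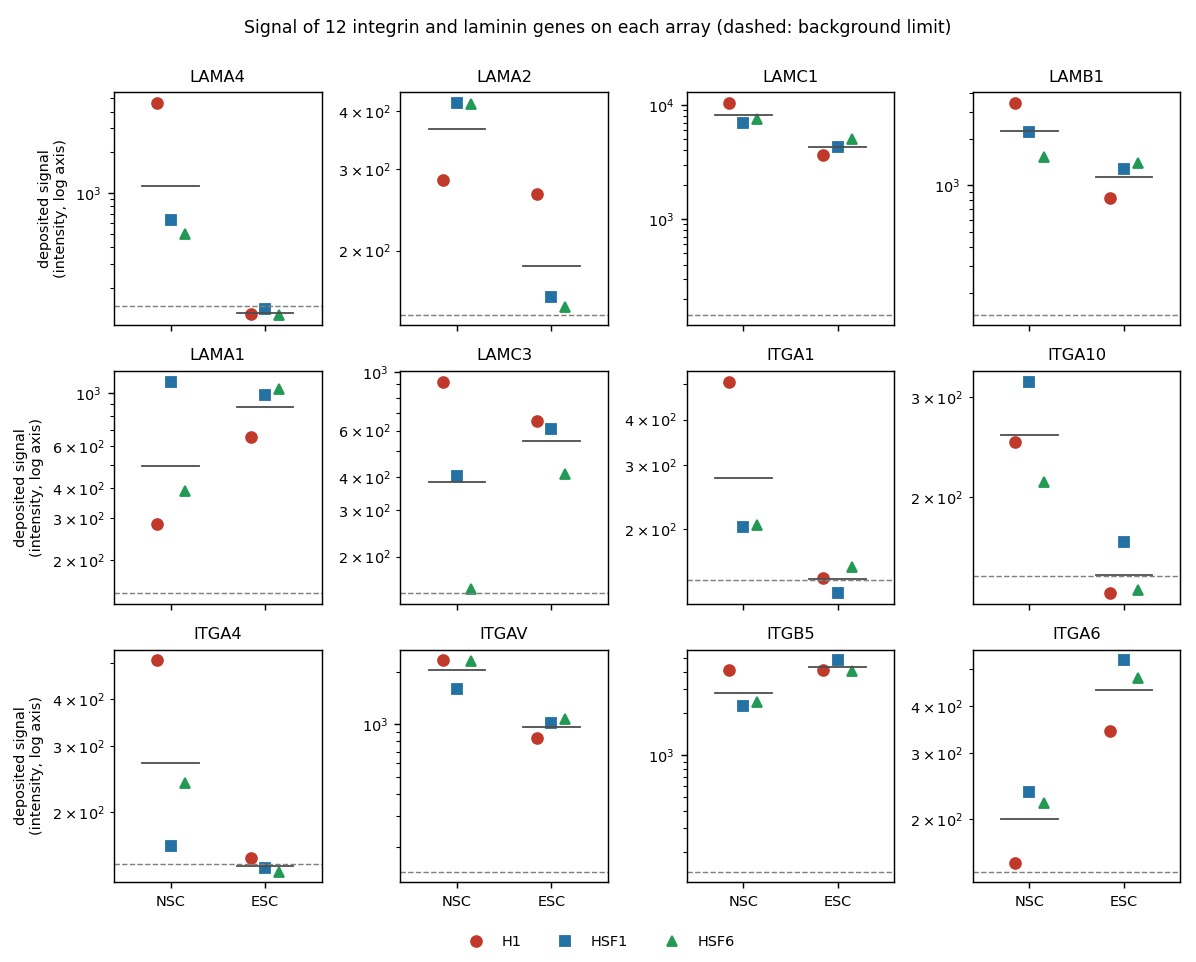
Deposited signal (vertical log axis) of the integrin and laminin members described in the text on each array, with NSC left of ESC, points marked by line and a grey line at the geometric mean of the 3 arrays. LAMA4 has every NSC point above and every ESC point below the background limit of 145.3, whereas the points of LAMA1 and LAMC3 overlap between stages.

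Of the integrin α subunits that bind laminin, α6 was lower in NSC. ITGA6 had signals of 153 (H1), 237 (HSF1) and 222 (HSF6) in NSC, against 343 (H1), 529 (HSF1) and 475 (HSF6) in ESC. H1 was the lowest line in both stages, and no NSC array reached the lowest ESC array. The difference was -1.97 ± 0.46 (adjusted p = 0.025), and the other ITGA6 probes were not tested. The ITGA6 call was lost without HSF6 NSC (adjusted p = 0.0532), without HSF1 ESC (0.0812) and without HSF6 ESC (0.0736).

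The other laminin-binding α subunits were not called. ITGA3, whose product pairs with β1 in epithelia, ranged from 364 to 453 in NSC and from 399 to 648 in ESC (-0.56, adjusted p = 0.23), and without both H1 arrays its difference was -0.96 and was called (adjusted p = 0.0403). ITGA7, for the subunit known from muscle, stayed between 164 and 187 in NSC and between 147 and 166 in ESC (0.37, adjusted p = 0.36), near the background limit throughout.

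Of 3 collagen-binding integrin genes tested, 2 were higher in NSC (11.4% of all genes were), both at low signals. Both exceeded the limit on all arrays of a stage only in NSC, so they could be tested only because they were high there. For ITGA1, whose product binds collagen IV and is common on mesenchymal cells, NSC signals were 509 (H1), 202 (HSF1) and 205 (HSF6), against ESC signals of 146 (H1), 133 (HSF1) and 157 (HSF6). H1 NSC was the highest, and all ESC arrays were near the limit (2.07 ± 0.58, adjusted p = 0.043). The ITGA1 call was kept without H1 NSC, at a smaller difference of 1.37 (adjusted p = 0.0217), but lost without any 1 of the other 5 arrays, at adjusted p of 0.0501 without HSF1 NSC, 0.0609 without HSF6 NSC, 0.101 without H1 ESC, 0.122 without HSF1 ESC and 0.0795 without HSF6 ESC. It was also lost where signals below the limit were raised to it (0.0542).

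ITGA10, for a collagen receptor known from cartilage, had 250, 320 and 213 in NSC of H1, HSF1 and HSF6, against 135, 167 and 137 in their ESC. The 3 lines were alike and the stages did not overlap (1.99 ± 0.38, adjusted p = 0.014). This call held without any 1 array, and ended when both arrays of HSF1 (adjusted p = 0.0587) or of HSF6 (0.0817) were left out. ITGA2, the platelet and epithelial collagen receptor subunit, ranged from 176 to 226 in NSC and from 168 to 201 in ESC (0.19, adjusted p = 0.68).

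Among the receptors of fibronectin, vitronectin and VCAM1, αV was higher in NSC. ITGAV had signals of 2324 (H1), 1587 (HSF1) and 2293 (HSF6) in NSC, against 837 (H1), 1019 (HSF1) and 1067 (HSF6) in ESC. The lowest NSC array lay well above the highest ESC array (1.17 ± 0.27, adjusted p = 0.024). The call was lost without HSF6 NSC (adjusted p = 0.0922), H1 ESC (0.0623), HSF1 ESC (0.0624) or HSF6 ESC (0.0535), and without both H1 arrays (0.95, adjusted p = 0.0649).

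ITGA4, for the α4 subunit that binds VCAM1 and fibronectin, had 509 (H1), 162 (HSF1) and 239 (HSF6) in NSC, against 151 (H1), 142 (HSF1) and 139 (HSF6) in ESC. All NSC arrays lay above all ESC arrays, but HSF1 NSC only just, and the difference of 2.0 ± 0.67 was not called (adjusted p = 0.070). It was called with the line as a block (adjusted p = 0.0471) and without HSF1 NSC (2.72, adjusted p = 0.0237), while without H1 NSC its difference was 1.24 (adjusted p = 0.0734). ITGA5, the α subunit of the classical fibronectin receptor, read 1579 (H1), 515 (HSF1) and 625 (HSF6) in NSC, against 439, 394 and 624 in ESC of H1, HSF1 and HSF6. Only H1 showed a wide gap between the stages, which overlapped (0.89 ± 0.51, adjusted p = 0.24).

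Of the β subunits, β1, the partner of most α subunits above, was bright everywhere. ITGB1 ranged from 10642 to 12597 in NSC and from 8370 to 12130 in ESC on its brightest probe, with the stages overlapping (0.09 ± 0.26, adjusted p = 0.81). The other tested ITGB1 probe read 6653 in H1 NSC and 2266 and 3467 in HSF1 and HSF6 NSC, against 2360 to 3775 in ESC (0.42, adjusted p = 0.51).

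Integrin β5, which pairs with αV to bind vitronectin, was lower in NSC on 2 of 3 tested probes. Its untested probes stayed below the limit on every array, at most at 142. One ITGB5 probe had 1516, 1192 and 1171 in NSC of H1, HSF1 and HSF6, against 3160, 2797 and 2683 in their ESC, without overlap (-1.24 ± 0.24, adjusted p = 0.014). A dimmer one had 562, 354 and 349 in NSC, against 842, 926 and 693 in ESC (-1.25 ± 0.33, adjusted p = 0.035). The brightest ITGB5 probe, which represents the gene, had 4095 (H1), 2242 (HSF1) and 2429 (HSF6) in NSC, against 4092 (H1), 4833 (HSF1) and 4014 (HSF6) in ESC. There H1 had the same signal in both stages, and the difference was not called (-0.63 ± 0.31, adjusted p = 0.17) unless H1 NSC was left out (-0.91, adjusted p = 0.0422). The call of the first probe was lost without HSF1 NSC (adjusted p = 0.0526) or HSF6 NSC (0.0636), and that of the dimmer one without any 1 array but H1 NSC (0.0612 to 0.120). The mean of the 3 tested ITGB5 probes was -1.04 and was called (adjusted p = 0.0369).

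ITGB2, the β subunit of the leukocyte integrins, was near background and stayed between 134 and 157 in NSC and between 158 and 184 in ESC over its pair of probes, and the differences of -0.79 and -0.57 were not called (adjusted p = 0.080 and 0.17). ITGAE, whose product pairs with β7 on lymphocytes of epithelia, ranged from 558 to 667 in NSC and from 494 to 959 in ESC, with H1 ESC the highest (-0.15, adjusted p = 0.77). Blood markers summed to 877 to 4796 on NSC arrays and 559 to 1279 on ESC arrays. The highest sum, in H1 NSC, was mostly CD34, which mesenchymal and vascular cells also carry (signals of 4449 (H1), 176 (HSF1) and 238 (HSF6) in NSC, against 147 to 167 in ESC). Of the 10 blood markers listed, only PTPRC and PF4 were below the limit on every array. CD68 had signals of 413 (H1), 1154 (HSF1) and 765 (HSF6) in NSC, against 369 to 1185 in ESC. GP1BA ran from 150 to 203 over the 6 arrays. None of the 4 blood markers tested was called.

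Several of these calls also depended on the processing. Without the filter on low signals the calls of ITGA1 (adjusted p = 0.142), ITGA6 (0.0800), LAMA2 (0.133), LAMC1 (0.0620) and the dimmer ITGB5 probe (0.0747) were lost, and without background correction those of ITGA1 (0.134) and LAMA2 (0.0549). An offset of 50 ended that of ITGA1 alone (0.0809). With both arrays of HSF1 left out, or both of HSF6, no member other than LAMA4 was called by limma.

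The remaining 29 probes were not tested, and for 14 genes no probe was. Of these probes 17 had no array above the limit and 12 had some, over a range of 96.3 to 220. ITGB3, the partner of αV and of the platelet subunit, reached 220 in H1 NSC and 146 in HSF1 NSC, against 156 in H1 ESC. ITGB8, which pairs with αV to release TGF-β from its latent form and is known from radial glia, had 156 and 153 in NSC of HSF1 and HSF6 and 123 in H1 NSC, against 118 to 125 in ESC. ITGB4, the hemidesmosome partner of α6, reached 215 in HSF6 NSC. ITGA9, a tenascin receptor subunit, had 170 in H1 NSC, against 217 in H1 ESC, and LAMB3, an epidermal laminin chain, was highest in H1 NSC (210, beside 163 in H1 ESC).

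The other untested genes came no higher than 164, a level that ITGA8 reached in HSF1 NSC. ITGB7 reached 154 in H1 NSC and 158 in H1 ESC, and ITGB6 146 in HSF1 ESC. The subunits of platelets and leukocytes ITGA2B, ITGAD, ITGAL, ITGAM and ITGAX, and the chain LAMB4, stayed below the limit on every array, at most at 138, 124, 144, 144.6, 133 and 136 in that order. A signal below the limit does not show that the RNA is absent. No probe carried the symbol ITGA11 or LAMA3, so these genes were not analysed here.

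The lines were then set side by side over the 21 tested genes. In H1 16 genes were higher in NSC than in ESC and 5 lower, in HSF1 13 and 8, and in HSF6 12 and 9. The median NSC minus ESC difference was 0.58 (H1), 0.51 (HSF1) and 0.08 (HSF6), beside medians of -0.04, -0.04 and -0.11 over all genes. With 1 array per line and stage these are values of single cultures.

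For each called probe the stages did not overlap, so the 3 lines had to share its direction, and this is no further evidence. The sizes differed. For the brighter LAMA4 probe the difference was 7.50 (H1), 4.12 (HSF1) and 3.97 (HSF6), but the second LAMA4 probe was nearly even, at 4.61, 4.16 and 3.62 in the same order. For ITGA1 the values were 3.46, 1.73 and 1.02. LAMA2 ran the other way, at 0.17 (H1), 2.68 (HSF1) and 2.92 (HSF6). ITGA10 was at 2.29, 1.91 and 1.78, and the called ITGB5 probe of brighter signal at -1.12, -1.31 and -1.28. LAMC3, which was not called, did not share 1 direction, at 0.57 (H1), -0.77 (HSF1) and -2.92 (HSF6).

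**Figure D3:**
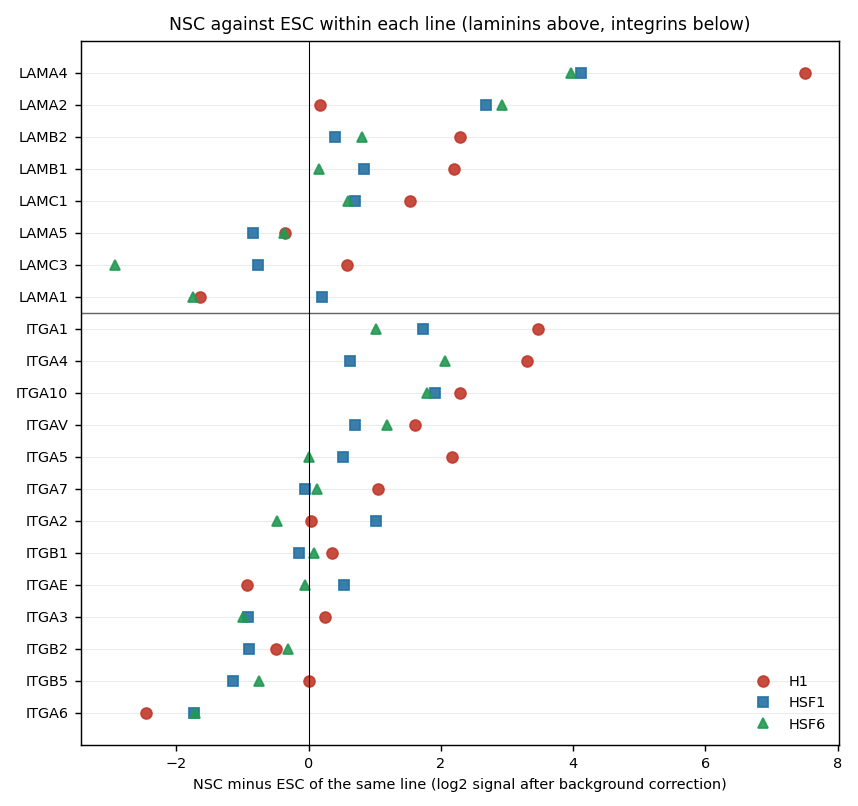
NSC minus ESC difference on the log2 scale (horizontal axis) of each tested integrin and laminin gene in H1, HSF1 and HSF6. There is 1 point per line and no error, since each point is 1 NSC array minus 1 ESC array. H1 lies to the right of both HSF lines for ITGA1 and for the brighter probe of LAMA4, which represents the gene. For LAMA2 H1 lies to their left.

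Whether the NSC effect itself differed between H1 and the HSF lines was tested as an interaction, with the spread taken from HSF1 and HSF6 and H1 assumed to vary like them. None of the 29 member probes was called by limma, beside 0.259% of all tested probes, although 9 (31%) had an unadjusted p under 0.05, as did 15.8% of all tested probes. The lowest adjusted p was 0.0672, for the brighter LAMA4 probe, whose NSC effect was 3.45 greater in H1 on the log2 scale, while the second LAMA4 probe gave 0.71 (adjusted p = 0.574). For LAMA2 the value was -2.63, a smaller effect in H1 (adjusted p = 0.080), and for the dimmer LAMB1 probe it was 2.73 greater (adjusted p = 0.093). The median over the members was 0.71, beside 0.04 over all tested probes. H1 NSC also had the highest sum of fibroblast and mesenchyme markers and the lowest of neuronal markers, as given above, and the part of these in the differences between lines was not tested.

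Of the tested members, ITGA5 and ITGA7 lie on chromosome 12 and ITGA3 and ITGAE on chromosome 17, the chromosomes for which the methods give duplications in H1. In ESC, the H1 signal less the HSF mean was, on the log2 scale, -0.22 for ITGA5, -0.52 for ITGA7, -0.81 for ITGA3 and 0.88 for ITGAE. These 4 genes had no common direction. The effect of the duplications on single genes was not tested.

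Partners of the laminins in the basement membrane were taken from a list. Of 10 such genes tested, 4 were higher in NSC (11.4% of all genes were), with a median of 1.58, beside -0.06 over all genes. Of the 4, COL15A1 could be tested only because it was high in NSC, so this count does not stand for the whole list. COL15A1, a collagen at the border of basement membranes, had 1535, 194 and 373 in NSC of H1, HSF1 and HSF6 and was below the limit on every ESC array, at least 8.90-fold higher, or at least 4.17-fold without H1 NSC. SPARC, which binds collagen IV, read 4875 to 6895 in NSC and 1221 to 1441 in ESC (2.23, adjusted p = 0.0025). NID2, which links laminin γ1 to collagen IV, and COL4A5 were higher by 2.51 and 2.09 (adjusted p = 0.035 and 0.021). The main collagen IV chains had differences of 1.40 (COL4A1, adjusted p = 0.16) and 1.75 (COL4A2, 0.11) and were not called, and HSPG2, for perlecan, was below the limit on every array. The call of SPARC held without any 1 array, that of NID2 held only without HSF6 NSC (0.0516 to 0.106 without any 1 of the others), and those of COL15A1 and COL4A5 were lost without HSF6 NSC, H1 ESC or HSF1 ESC (adjusted p = 0.0569 to 0.0827), that of COL15A1 also without HSF6 ESC (0.0770) and that of COL4A5 without HSF1 NSC (0.0572).

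Ligands that bind integrins of the αV, α4 and β1 families gave 5 genes higher and 2 lower of 13 tested (11.4% and 12.4% of all genes), with a median of 0.84. Of those called, POSTN, VCAM1 and FBN1 exceeded the limit on all 3 arrays only in NSC, and EDIL3 only in ESC. They could be tested only through the stage where they were high, so these counts do not stand for the whole list. TGFBI, a collagen-associated adhesion protein, had 10878 to 30019 in NSC, against 408 to 468 in ESC (6.0, adjusted p = 4.1e-04). POSTN, a ligand of αV integrins that is also in the mesenchymal marker list, had 1721 to 3195 in NSC, against 133 to 175 in ESC (5.82, adjusted p = 4.1e-04). VCAM1, the cell surface ligand of α4, had 548 to 1554 in NSC and was below the limit in ESC, at least 21.8-fold higher. THBS1, a thrombospondin, was also higher (1.65, adjusted p = 0.029). CCN1 and EDIL3, both matrix ligands of αV, were lower (-1.56 and -1.51, adjusted p = 0.013 and 0.036). FN1, for fibronectin, was not called (0.81, adjusted p = 0.16). Its signals were near the background limit, at 154 to 205 in NSC and 127 to 160 in ESC. Of those named, TGFBI, POSTN, VCAM1 and CCN1 stayed called without any 1 array. The calls of THBS1 and EDIL3 were lost without HSF6 NSC, HSF1 ESC or HSF6 ESC (adjusted p = 0.0703 to 0.0915), that of THBS1 also without H1 NSC (0.0535) and that of EDIL3 without H1 ESC (0.0938). FBN1 lost its call without HSF1 ESC (adjusted p = 0.0590) or HSF6 ESC (0.0535).

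A list of laminin receptors other than integrins, which also held sarcoglycans, gave 1 gene higher and 1 lower of 6 tested (11.4% and 12.4% of all genes). DAG1, for dystroglycan, was listed but had no probe under its symbol. SDC4, a syndecan that acts beside integrins in adhesion, had 142 to 154 in NSC, against 253 to 288 in ESC (-2.13, adjusted p = 0.0028). It could be tested only because it was high in ESC. SGCE, a sarcoglycan of the dystroglycan complex, was higher (1.75, adjusted p = 0.045), a call lost without HSF6 NSC (0.0805), H1 ESC (0.106), HSF1 ESC (0.129) or HSF6 ESC (0.0699).

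Proteins that couple integrins to actin and to signalling, or that partner them in the membrane, were taken from a list of 30 tested genes. Of these 2 were higher (11.4% of all genes were) and 3 lower (12.4%), with a median of 0.04. FERMT1, the kindlin of epithelia, and CD9, a tetraspanin partner of integrins, were lower (-2.63 and -2.60, adjusted p = 0.011 and 0.0057), and PARVB, for β-parvin, was lower too (-1.61, adjusted p = 0.040), a call that held only without H1 NSC (0.0579 to 0.111 without any 1 of the others). CD47, a membrane partner of αVβ3, was higher (2.42, adjusted p = 0.0062). It exceeded the limit on all arrays of a stage only in NSC, and FERMT1 and PARVB did so only in ESC. Each could be tested only through the stage where it was high. The shared core had small differences that were not called, at 0.37 for TLN1 (talin), -0.29 for VCL (vinculin), -0.26 for ILK and 0.12 for FERMT2.

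**Figure D4:**
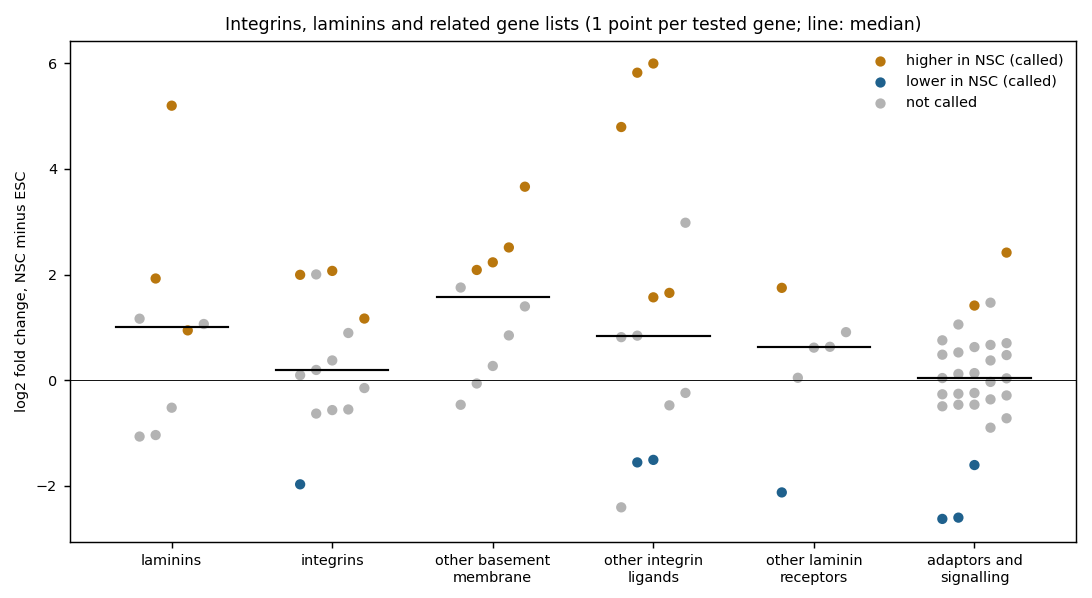
NSC minus ESC difference on the log2 scale (vertical axis) of each tested gene in the integrin and laminin families and in 4 lists of their partners. Called genes are marked, and a line lies at the median of each list. The median is 1.58 for other basement membrane components and 0.04 for adaptor and signalling proteins.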

How the data were processed

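The authors deposited an intensity for each probe, from BeadStudio as the submitters' processing notes have it. The values were linear and quantile normalised over the 6 arrays (sorted columns differed by at most 0.407) with no background subtracted (lowest signal 82.3). Another table holds 24 columns of values whose names match no sample's labels, and it was left out. Arrays carry no count depth, and their number limits the precision.

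R 4.3.3 and limma 3.58.1 were used. The background mean was the mode of the signals below 300.0 (127) and its SD the spread below the mode (11.2). Signals were corrected with the normexp model, 16 was added and log2 was taken. A probe was tested above the mean plus 1.64 SD (145.3) on all 3 arrays of a stage. Stages were compared with lmFit and eBayes without covariates, with Benjamini-Hochberg adjustment over all 17402 tested probes, and a call needed an adjusted p under 0.05 and a 1.5-fold difference, the study's own thresholds. Each gene stands in the counts of genes by the brightest of its tested probes. A bound ("at least") sets the NSC mean against the limit.

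Of 48803 probes 27578 had 1 gene symbol, 13 several and 21212 none. Symbols came from the platform annotation, and promoter windows from RefSeq. Arrays of a line come from the same cell line, but the main comparison did not pair them. They were paired in the differences within each line and where the line was a block. Deviations from the stage means correlated between the stages with r of 0.172 (H1), 0.224 (HSF1) and 0.103 (HSF6) over the tested probes.

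Members, lists and tests were chosen with earlier results of these data known. All member genes are named. Values on every array are given for members called, or at least 2-fold different, and up to 4 called genes are named from each list of partners. Other genes were chosen after their values were seen, among them the ITGB5 probes, ITGA5, the adaptors TLN1, VCL, ILK and FERMT2, COL4A1, COL4A2, HSPG2, FN1, FBN1, CCN1 and EDIL3.

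Alternatives were an offset of 50, no background correction, no filter, a stricter filter (3 SD, 160), the line as a block, the methods' t-test, the mean of a gene's probes, each array left out, and both arrays of a line left out. Raising signals below the limit to it was added after the data were seen.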

Additional observations from a re-analysis of the deposited data

How the results depend on the processing

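With 3 arrays a stage, many calls stood near the threshold. Against 8 member probes higher and 3 lower in NSC (6 genes and 1 gene), 5 probes were higher without background correction. Without the filter, 4 probes were higher and 1 lower (3 genes and 0 genes) and 6 partner genes were higher, in place of 12. Without both H1 arrays 5 probes and 3 genes were lower, and ITGAV and LAMC1 lost their calls. Without both HSF1 arrays 1 probe was higher and 0 lower (0 genes each way), and partner genes gave 4 higher and 1 lower, in place of 12 and 6. Without both HSF6 arrays 2 probes were higher and 0 lower (1 gene and 0 genes), and partner genes gave 7 and 0. The methods' t-test called 1 LAMA4 probe higher and 1 ITGB5 probe lower (0 genes each way), and 5 partner genes higher and 3 lower. With the mean of a gene's probes, 2 genes were lower. Leaving out 1 array gave 3 to 7 probes higher and 0 to 4 lower, 2 to 5 genes higher and 0 to 2 lower, and 6 to 13 partner genes higher and 4 to 6 lower, while the interaction, run without each of the 4 HSF arrays only, had 0 calls (lowest adjusted p 0.0563 to 0.234). With the line as a replicate block, 6 probes were higher and 3 lower. The block ended the calls of LAMA2 and LAMC1, added that of ITGA4 and changed no other call of a member gene. Where signals below the limit were raised to it, 7 probes were higher and 3 lower.

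Directions turned only for members that were not called. Leaving out 1 array moved ITGA2 between -0.065 and 0.37, ITGAE between -0.43 and 0.14, ITGB1 between -0.082 and 0.19 on its brightest probe and between -0.010 and 0.79 on the other, and LAMC3 between -2.01 and 0.17. Without both H1 arrays ITGAE was at 0.24, the ITGB1 probes at -0.034 and -0.094 and the dimmer LAMB1 probe at -0.20, and without both HSF1 arrays ITGA2 was at -0.22. The causes were not tested.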
